A study of Chromochloris zofingiensis with 18 samples.

Results

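The 150 genes described here had low transcript levels before sulfur was withdrawn, were higher after 6 h of sulfur starvation and were lower again at 12 h. They come from a transcriptome series of Chromochloris zofingiensis, a unicellular green alga known for storing triacylglycerol (TAG) and the red ketocarotenoid astaxanthin under stress. Levels are FPKM (fragments counted on a transcript, corrected for its length and for the depth of the library), m is the mean of log2(FPKM + 1) over the 3 replicates of a condition, and a gene not listed in a sample was set to 0. The rule took genes with a mean below 30 FPKM at 0 h, an m at least 1 above 0 h at 6 h of starvation, and an m within 1 of 0 h at 48 h. It was met by 318 of the 15220 genes listed in at least 1 sample, and the 150 with the lowest m at 12 h minus m at 6 h are the members. The other 168 serve as the nearest comparison, and UNPLg00257 was left out by the rule.

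All cultures were strain ATCC30412, grown in photobioreactor columns under continuous light with air enriched in carbon dioxide, and each condition had 3 biological replicates, 18 samples in all. Cells of the exponential phase were washed and moved to a medium in which magnesium chloride took the place of magnesium sulfate, and were sampled at 0 h and after 6, 12, 24 and 48 h of starvation (SS-6 h to SS-48 h). The last group, SR-12 h, was starved for 48 h and then given sulfur again for 12 h. The sample records describe these cells as moved to fresh sulfur-containing medium and the paper as given sulfate, and which of these applies is not settled here. The 18 RNA samples include none of cells kept in sulfur after transfer, so in these data time after transfer and lack of sulfur cannot be told apart.

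Sulfur is needed for cysteine and methionine, for iron-sulfur clusters and for S-adenosylmethionine, the methyl donor of the cell. When it runs out, green algae are known to induce sulfate uptake and assimilation, to reuse the sulfur of their proteins and to slow photosynthesis. Little is known of most genes of this alga that respond only briefly, and few of those below have a name.

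The pulse itself is what chose these genes, so the values at 0 h, SS-6 h, SS-12 h and SS-48 h are a description without a test. The median of the members' mean levels was 13.2 FPKM for 0 h, 57.0 FPKM for SS-6 h, 14.9 FPKM for SS-12 h, 17.7 FPKM for SS-24 h, 14.7 FPKM for SS-48 h and 7.08 FPKM for SR-12 h. On the log2(FPKM + 1) scale, SS-6 h minus 0 h ranged from 1.01 to 9.56 over the members, with a median of 1.85, and SS-12 h minus SS-6 h ranged from -5.69 to -1.10, with a median of -1.78. In 123 of the 150 members all 3 SS-6 h replicates lay above the other 15 samples, which is true of 5.97% of all genes. SS-6 h had the highest mean of the 6 conditions in 145 members, and SS-24 h in the other 5. Mean levels at SS-6 h reached 100 FPKM or more in 35 members, while 27 were under 1 FPKM at 0 h.

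**Figure D1:**
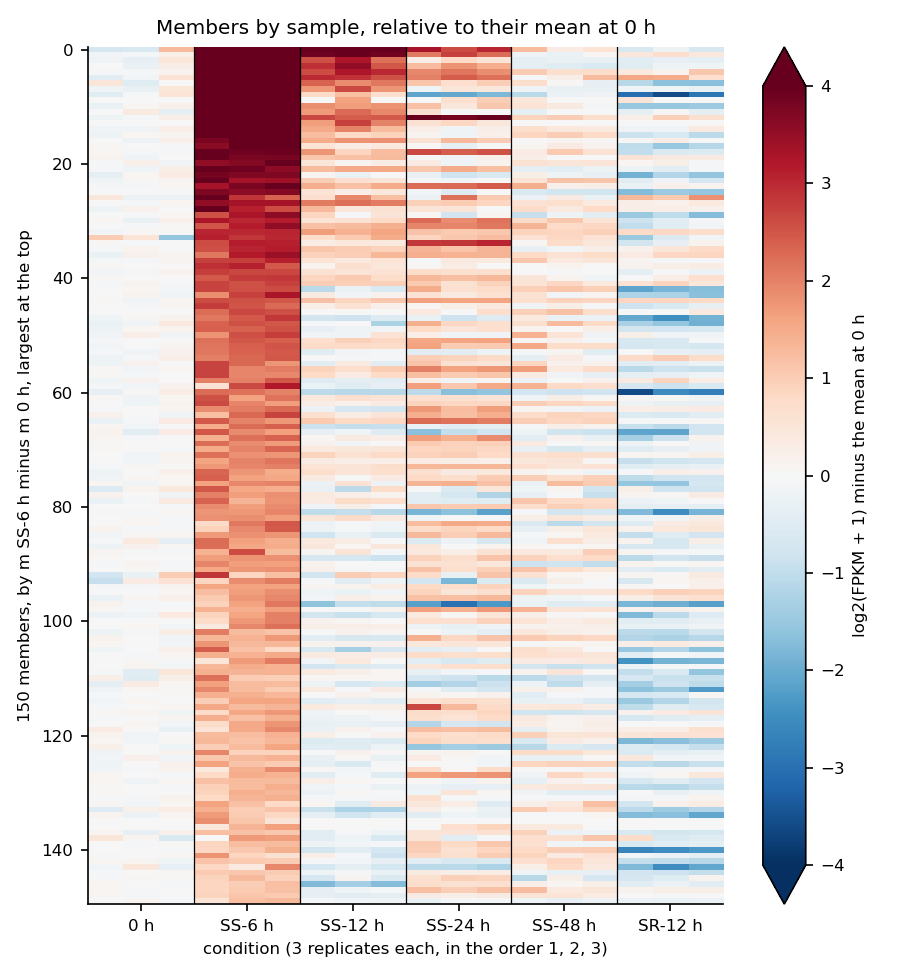
Each row is 1 of the 150 members, ordered by the difference at SS-6 h with the largest at the top, each column is 1 sample, and the colour is log2(FPKM + 1) minus the gene's mean at 0 h. The rule chose the rows for a high mean at SS-6 h, so those columns are mostly red. In 112 of the 150 each single SS-6 h replicate was at least 1 above the mean at 0 h. Part of the rows are red again at SS-24 h, and at SR-12 h the members ranged from -3.18 to 1.39 relative to 0 h.

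The spread at SS-6 h was wider than elsewhere. The median SD of log2(FPKM + 1) over the members was 0.30 at SS-6 h and 0.13 to 0.19 at the other conditions. SS-6 h replicate 1 had the fewest reads behind its FPKM values. Its ratio to 0 h replicate 1, as read from the steps between low FPKM values, was 0.756, against 0.920 to 1.01 for the others. This sample had about as many clean reads as the others in the paper, but the smallest share of them mapped to genes. It held the lowest of the 3 SS-6 h values in 76 members and the highest in 61, and its part in these values was not tested. With it left out the rule again chose 124 of the 150.

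Near the limit of 150 the choice is fine-grained. The last members taken were Cz06g18150 and Cz06g15190, with SS-12 h minus SS-6 h at -1.12 and -1.10, and the first ones not taken were Cz14g21040 and Cz03g21100, at -1.09 and -1.08. Cz06g18150 is also an example of a faint member, with 0.82, 1.89 and 2.10 FPKM at SS-6 h against 0.27, 0.32 and 0.20 FPKM at 0 h. The lowest means at SS-6 h were 1.37 FPKM in Cz05g01150 and 1.41 FPKM in Cz07g28200. Cz07g28200 was listed in no sample outside SS-6 h, where it had 2.66, 1.15 and 0.43 FPKM.

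The study's tables pair 15 of the 150 members with a symbol, a description or a pathway, and leave the other 135 without one, so what these genes encode is mostly open. Of the 48 genes used here from the study's list of largest rises at SS-6 h, 16 are members. That list was chosen on the same samples and is not independent evidence of their direction.

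The member with the highest mean at SS-6 h was Cz13g08120 (FDX2), a ferredoxin, one of the small iron-sulfur proteins that carry electrons in the chloroplast. It had 2632, 1696 and 1763 FPKM at SS-6 h, against 16.9, 23.2 and 35.7 FPKM at 0 h. It had 41.7, 56.9 and 38.6 FPKM in the SS-12 h samples, and less than before starvation, 4.85, 5.14 and 6.25 FPKM, in those of SS-24 h. The SS-48 h values were 10.8, 20.3 and 21.9 FPKM, and the SR-12 h values were 2.02, 1.11 and 2.36 FPKM. Its lowest values were those after sulfur came back, without overlap with any other condition.

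Next in level was Cz03g06020, which no table names. It had 3053, 1319 and 1181 FPKM at SS-6 h, against 0.40, 0.46 and 4.47 FPKM at 0 h, the largest difference among the members. By SR-12 h it was at 0.44, 0.94 and 0.42 FPKM, within the range of the 0 h samples.

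A pair of peroxidase genes, whose products use hydrogen peroxide to oxidise other molecules, flank the unnamed Cz15g21200 in the order of gene IDs. Cz15g21190 had 1050, 1123 and 1206 FPKM at SS-6 h, against 12.0, 15.4 and 17.1 FPKM at 0 h. Cz15g21210, also described as lactoperoxidase, had 95.3, 86.3 and 87.8 FPKM at SS-6 h, against 4.09, 6.07 and 7.48 FPKM at 0 h. Cz15g21200 had 1202, 971 and 1035 FPKM at SS-6 h, against 15.7, 7.52 and 11.2 FPKM at 0 h. All 3 genes were lower at SR-12 h than in any 0 h sample.

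Other members carry the description or a domain of an enzyme, and their roles in this alga were not tested. Cz15g02050, described as an S-adenosylmethionine-dependent methyltransferase, had 758, 617 and 625 FPKM at SS-6 h, against 17.8, 22.1 and 22.4 FPKM at 0 h. Cz04g07210, a formamidase, which splits formamide into formate and ammonia, had 14.2, 15.7 and 25.1 FPKM at SS-6 h, against 0.24, 0.50 and 0.20 FPKM at 0 h, and stayed under 1 FPKM in all other samples. Cz12g09220, described as an alcohol dehydrogenase of the cinnamyl alcohol type, had 1209, 1430 and 1445 FPKM at SS-6 h, against 21.0, 23.5 and 29.7 FPKM at 0 h. Cz11g25140 carries a phytanoyl-CoA dioxygenase domain, found in oxygenases that use iron and 2-oxoglutarate, and had 171, 156 and 162 FPKM at SS-6 h, against 10.2, 9.47 and 9.48 FPKM at 0 h. Cz07g28210, which one annotation describes as an RNA polymerase, had 311, 491 and 462 FPKM at SS-6 h, against 0.28, 0.31 and 0.59 FPKM at 0 h.

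**Figure D2:**
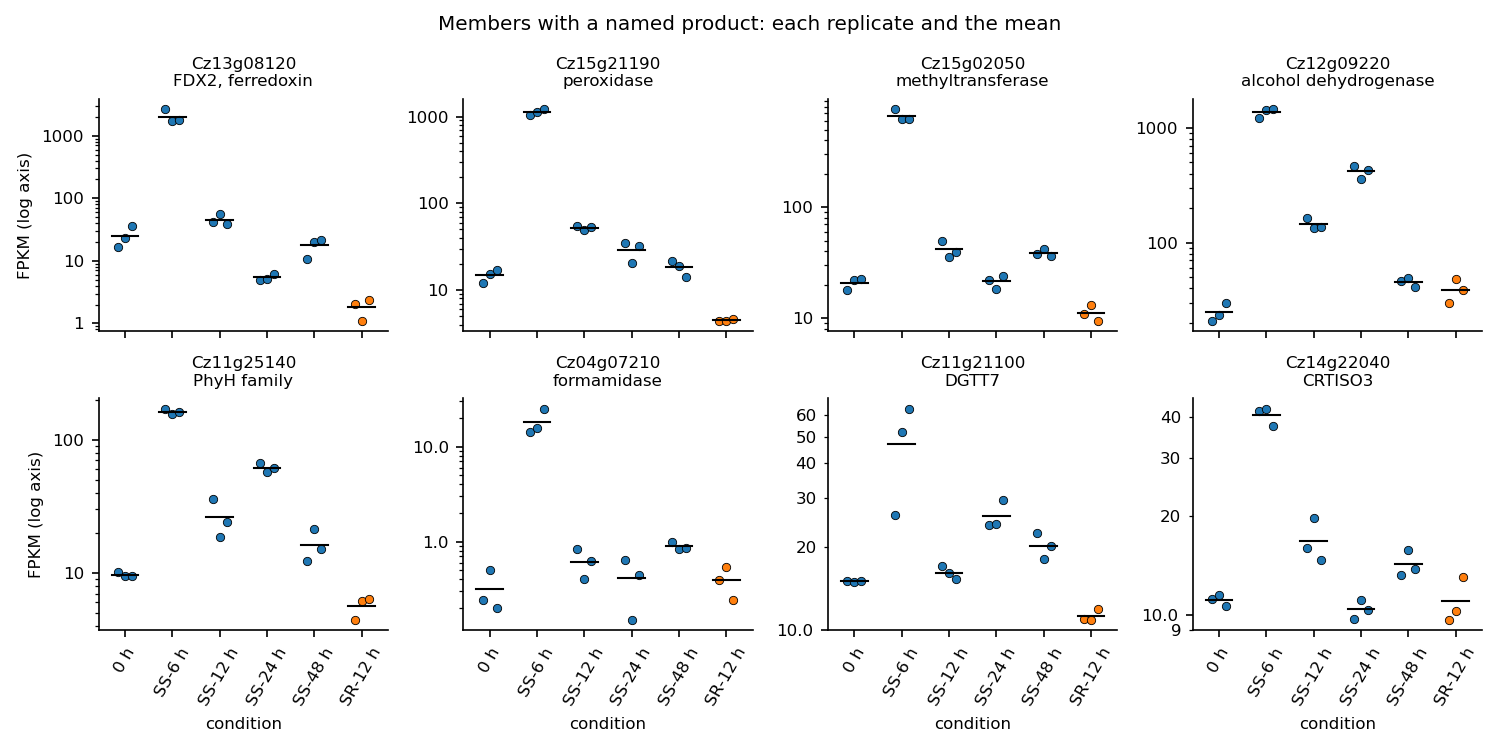
FPKM on a log axis by condition for 8 members with a named product, with a point for each replicate and a line at the mean of 3. The alcohol dehydrogenase and the PhyH gene stand well above 0 h again at SS-24 h, at 418 and 61.5 FPKM, whereas the ferredoxin is below its 0 h level there, at 5.41 FPKM.

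The study's gene table of the TAG and carotenoid pathways holds 1 member for each. Cz11g21100 (DGTT7) encodes a type II diacylglycerol acyltransferase, the kind of enzyme that adds the last acyl chain of TAG, and was the only one of the 20 listed TAG synthesis genes that met the rule. It had 26.1, 51.8 and 63.0 FPKM at SS-6 h, against a mean of 14.99 FPKM at 0 h (SD 0.0153, n = 3), so replicate 1 lay well below the others at SS-6 h. The type II genes DGTT5 and DGTT8 were above 30 FPKM at 0 h, which is enough to leave them outside the rule. Their means at SS-6 h were 146 ± 8.07 and 127 ± 54.9 FPKM (SD, n = 3). At 0 h they were 49.7 ± 5.25 and 67.7 ± 2.48 FPKM. The remaining type II genes had lower means at SS-6 h than at 0 h. DGTT1, DGTT2 and DGTT3 had 23.3, 30.1 and 5.08 FPKM, against 38.6, 35.7 and 11.5 FPKM. DGTT4 and DGTT6 had 9.81 and 22.6 FPKM, against 21.0 and 30.8 FPKM. Cz14g22040 (CRTISO3) encodes a carotenoid isomerase, which turns cis-lycopene into the all-trans form, and was the only member among the 36 listed carotenoid genes. It had 41.7, 42.5 and 37.6 FPKM at SS-6 h, against 11.2, 11.5 and 10.6 FPKM at 0 h. The other carotenoid isomerases of the table, CRTISO1 and CRTISO2, had 19.0 and 30.03 FPKM at SS-6 h, against 19.7 and 33.6 FPKM at 0 h (means of 3).

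The remaining annotated members are known only by a pathway list. Cz19g01240, listed under ascorbate and aldarate metabolism, had 18.3, 21.1 and 20.4 FPKM at SS-6 h, against 2.16, 2.47 and 3.97 FPKM at 0 h. Cz01g38220 and Cz01g38230, with neighbouring IDs and both listed under fatty acid metabolism and tetrapyrrole binding, and the second also under carotenoid biosynthesis, averaged 35.0 ± 14.1 and 48.8 ± 4.40 FPKM at SS-6 h, against 10.7 ± 1.09 and 13.2 ± 0.623 FPKM at 0 h (SD, n = 3). Cz14g20200, listed under organelles without a membrane, averaged 101 ± 14.2 FPKM at SS-6 h, against 14.8 ± 0.433 FPKM at 0 h. UNPLg00003, listed under nitrogen compound biosynthesis, averaged 30.4 ± 5.15 FPKM at SS-6 h, against 14.1 ± 0.820 FPKM at 0 h.

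Many members neighbour one another. In the order of the listed IDs, 39 members (26.0%) have another member as the next ID before or after, against 1.65% of the other genes, and they form 15 runs, 5 of them of 3 or more genes. The rule did not use position, but neighbours in ID order are not independent observations. The longest run holds the 6 unnamed genes Cz07g27150 to Cz07g27200. Their means at SS-6 h were 238, 103, 96.5, 55.9, 20.8 and 6.28 FPKM in ID order, against 0.527, 0.270, 0.347, 0, 0.147 and 0.0200 FPKM at 0 h. The genes on either side, Cz07g27140 and Cz07g27210, were at 15.5 and 20.5 FPKM at SS-6 h, against 13.5 and 18.0 FPKM at 0 h.

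A shorter run, Cz07g28190 to Cz07g28210, lies under the same ID prefix. Cz07g28190 had 374, 456 and 465 FPKM at SS-6 h, against 0.31, 0.14 and 1.01 FPKM at 0 h, and had the second lowest difference of SS-12 h from SS-6 h, -5.55. The lowest, -5.69, was that of Cz17g17020, which had 97.8, 81.7 and 50.5 FPKM at SS-6 h and was listed in no 0 h sample. It belongs to a run with Cz17g17010 and Cz17g17030, and the next gene, Cz17g17040, missed the rule only at SS-48 h, where it was 1.31 above 0 h. The prefix Cz07 held 18 of the 150 members (2.08% of its 867 genes) and Cz17 held 9 (3.33% of its 270 genes), and no prefix of a numbered group lacked a member.

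**Figure D3:**
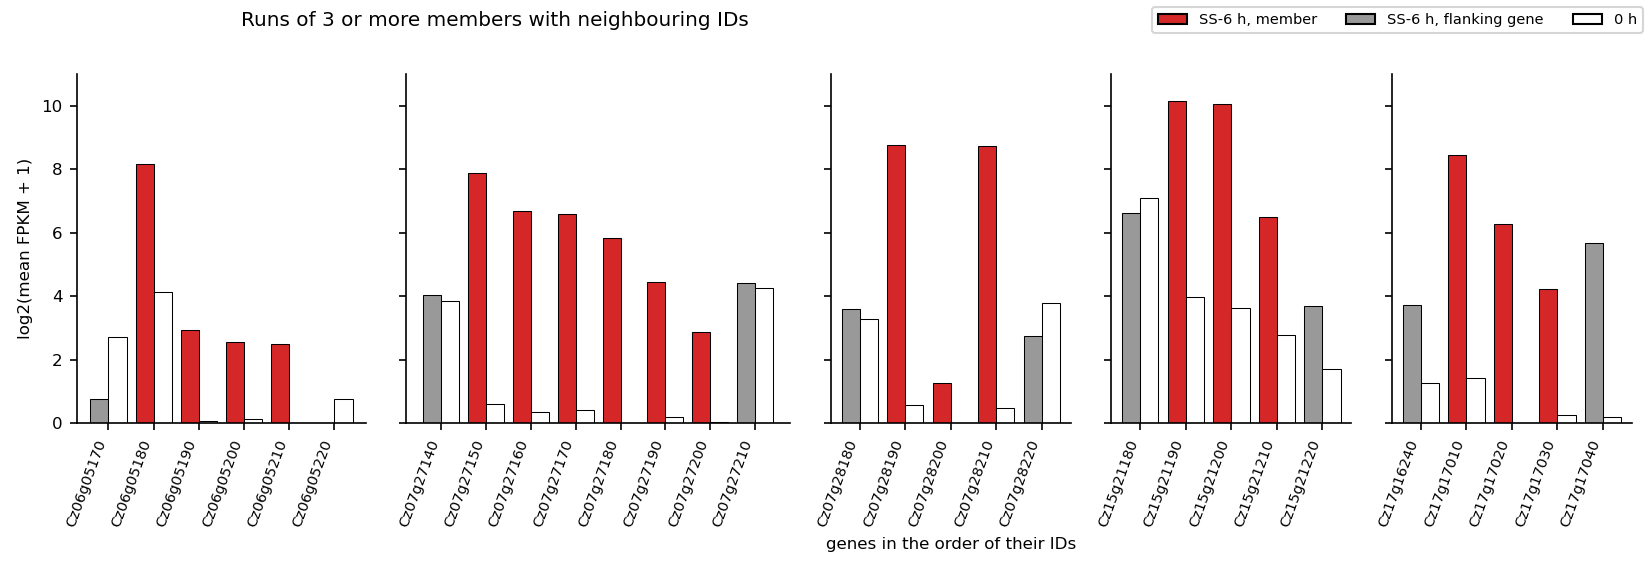
Bars show log2(mean FPKM + 1) at SS-6 h (filled) and at 0 h (open) for the 5 runs of 3 or more members with neighbouring IDs and the gene on either side, in ID order. Members (red) reach up to 1126 FPKM at SS-6 h, and the flanking genes (grey) include some with a high SS-6 h bar of their own, such as Cz17g17040 at 50.3 FPKM.

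Coding sequences, in part shortened, were at hand for 16 members, and 4 of their 120 pairs share an identical stretch of 25 bases or more. Cz17g17010 and Cz17g17050 share 126 identical bases, longer than the single-end reads, so the split of reads between them is uncertain. Their means at SS-6 h were 347 ± 82.2 and 339 ± 53.3 FPKM, against 1.71 ± 0.247 and 2.67 ± 1.37 FPKM at 0 h (SD, n = 3). Cz02g03140, which shares 25 bases with Cz17g17050, averaged 111 ± 18.1 FPKM at SS-6 h, against 6.86 ± 1.38 FPKM at 0 h. The unnamed Cz05g28140 averaged 391 ± 182 FPKM at SS-6 h, against 27.1 ± 2.81 FPKM at 0 h.

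The comparison of SR-12 h with SS-24 h asks how the members stood after sulfur came back relative to 24 h of starvation, and it is the only pair of conditions whose samples the rule did not use. None of the members was called higher and 67 were called lower at SR-12 h, called meaning a log2 difference of at least 1 in size with an adjusted p of at most 0.05 in limma's test (Benjamini-Hochberg over all 15220 genes). Over all genes 6.51% were called higher and 9.13% lower, and over the members 44.7% were lower. Of the 67, 29 were also called higher at SS-24 h than at 0 h, and 22 were called lower at SR-12 h than at 0 h. Both held for 2 of them and neither for 18. These counts involve 0 h, which the rule used, and were made for the members alone. SS-48 h lay between the 2 conditions in time, and the rule kept its m within 1 of 0 h. The 29 called higher at SS-24 h than at 0 h had therefore come down at least in part before sulfur came back. To that extent the rule bears on this comparison too. For the other members the comparison does not show whether a fall came before or after sulfur came back. At an unadjusted p under 0.05 with no fold limit, limma gave 6 members higher and 103 lower, against 27.0% and 29.6% of all genes. With a pseudocount of 0.1 in place of 1, 3 members were called higher and 81 lower, against 7.86% and 10.2% of all genes. With 0.5, 2 were called higher and 75 lower, against 7.14% and 9.66% of all genes. The median difference was -0.90 over the members, -0.25 over the 168 other genes that met the rule, and -0.01 over all genes. Of the other 168, 10 were called higher and 24 lower. In 109 members all 3 SR-12 h replicates lay below all 3 of SS-24 h, which is true of 36.9% of all genes, and in 6 they lay above, against 33.0% of all genes.

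**Figure D4:**
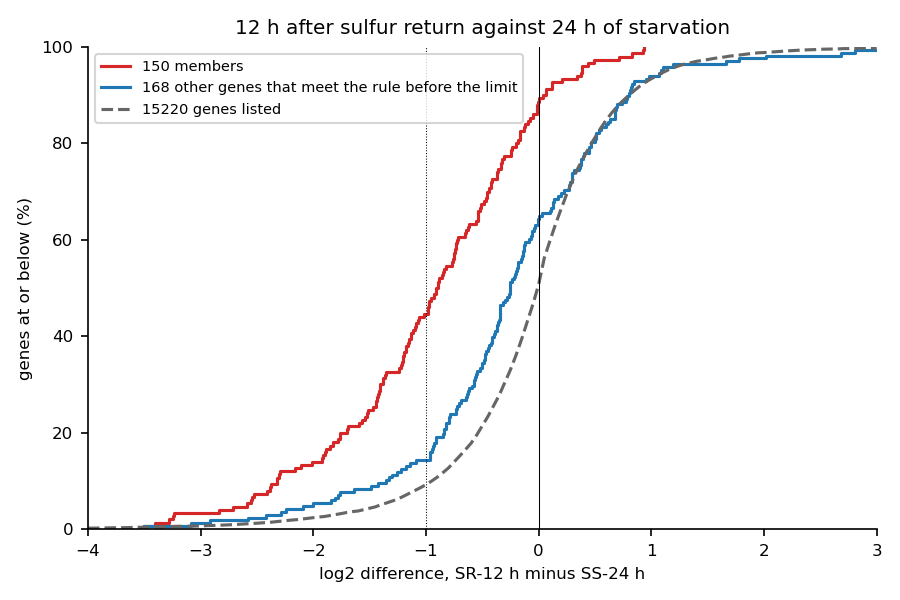
The curves give the share of genes at or below each log2 difference of SR-12 h minus SS-24 h for the 150 members (red), the 168 other genes that meet the rule (blue) and all 15220 genes (dashed). The red curve lies to the left of the others at the median, -0.90 against -0.25 and -0.01, and its highest value is 0.94.

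The largest negative differences without overlap of replicates were in Cz03g06020 and Cz12g09220. Cz03g06020 had 0.44, 0.94 and 0.42 FPKM at SR-12 h, against 21.0, 12.7 and 17.4 FPKM at SS-24 h, a difference of -3.48 (SE 0.47, adjusted p = 1.5e-05). The alcohol dehydrogenase Cz12g09220 had 29.95, 48.6 and 38.5 FPKM at SR-12 h, against 468, 361 and 426 FPKM at SS-24 h, a difference of -3.41 (SE 0.16, adjusted p = 1.8e-10). Its mean at SS-48 h was 45.4 FPKM (SD 4.26, n = 3), so it was already near its SR-12 h level before sulfur came back. Next was the unnamed Cz05g10210, with 2.90, 3.34 and 3.96 FPKM at SR-12 h, against 47.1, 35.5 and 43.1 FPKM at SS-24 h. The phytanoyl-CoA dioxygenase gene Cz11g25140 had 4.44, 6.11 and 6.41 FPKM at SR-12 h, against 66.5, 57.0 and 61.1 FPKM at SS-24 h, a difference of -3.24 (SE 0.20, adjusted p = 3.5e-09).

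Of the 15 annotated members 8 were called lower at SR-12 h than at SS-24 h, against 44.7% of all 150 members and 9.13% of all genes. The peroxidase Cz15g21190 fell to 4.46, 4.46 and 4.69 FPKM at SR-12 h, against 34.6, 20.6 and 32.4 FPKM at SS-24 h, a difference of -2.41 (SE 0.18, adjusted p = 1.8e-08). Its neighbour Cz15g21200 differed by -2.39 and the second peroxidase, Cz15g21210, by -0.98, the last not past the fold limit. FDX2 was already low at SS-24 h and differed by -1.20 (SE 0.29, adjusted p = 0.0026). DGTT7 had 10.9, 10.9 and 11.9 FPKM at SR-12 h, against 24.0, 24.2 and 29.5 FPKM at SS-24 h, a difference of -1.13 (SE 0.22, adjusted p = 0.00041). Cz19g01240 of ascorbate metabolism differed by -2.55 (SE 0.31, adjusted p = 4.6e-06), and Cz07g28210 by -1.83 (SE 0.21, adjusted p = 2.3e-06).

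Several named members did not pass. CRTISO3 had 9.64, 10.3 and 13.1 FPKM at SR-12 h, against 9.72, 11.1 and 10.4 FPKM at SS-24 h, a difference of 0.06 (SE 0.12). The formamidase differed by -0.01 (SE 0.18), Cz01g38230 by -0.16 (SE 0.20), and the methyltransferase Cz15g02050 by -0.89 (SE 0.14), under the fold limit although its replicates did not overlap. UNPLg00003 was called lower, at -1.16, but without SR-12 h replicate 1 it was at -0.99 and not called. Among all 20 TAG synthesis genes that the study lists, 7 were called lower and 1 higher. Among the 36 carotenoid genes 4 were lower and 7 higher. Over all genes 9.13% were lower and 6.51% higher.

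By level at 0 h, 3 of the 27 members under 1 FPKM were called lower, 19 of the 37 from 1 to below 10 FPKM, and 45 of the 86 from 10 FPKM upward. Over all genes of any level 9.13% were called lower, and the share within each of these bands was not taken. Whether the bands differ for reasons of level alone was therefore not tested. The lowest genes rest on few reads, and their differences are compressed by the added 1.

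Part of the members had a larger m at SS-24 h than at SS-12 h. This held for 88 members, and the difference was at least 1 in 32. Of the 168 other genes that met the rule, the numbers were 44 and 5. The share over all genes was not counted. The members were taken for a low m at SS-12 h relative to SS-6 h, so this is a description. The 32 stand out for a high m at SS-24 h, and the counts that follow use the same SS-24 h samples. Nothing is therefore read from them, and the share over all genes in such a split was not counted. Of the 32, 28 were called lower at SR-12 h than at SS-24 h, against 39 of the other 118 members. An example is Cz04g09040, an unnamed gene, with 104, 153 and 146 FPKM in the SS-6 h samples, 20.3, 22.0 and 21.5 FPKM in those of SS-12 h, 122, 125 and 141 FPKM in those of SS-24 h, and 16.8, 27.7 and 22.5 FPKM in those of SS-48 h. Its SR-12 h values were 9.29, 12.6 and 17.9 FPKM, and its SS-6 h and SS-24 h values overlapped. Cz06g15190 had 108, 40.7 and 27.8 FPKM at SS-24 h, where replicate 1 stood apart.

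Against 0 h, whose samples the rule used, the values are given beside the background and nothing is read from them. At SS-24 h 38 members were called higher and 8 lower, where 4.57% of all genes were higher and 6.89% lower. At SR-12 h 1 member was called higher and 32 lower, where 4.99% of all genes were higher and 8.42% lower. Both comparisons share the 0 h samples. The largest SS-24 h rises were those of Cz12g09220, 4.03 (SE 0.16, adjusted p = 7.0e-11), and Cz03g06020, 2.98 (SE 0.47). The largest SS-24 h falls were those of Cz01g38220, at -2.48 (SE 0.27), of FDX2, at -1.97 (SE 0.29), and of Cz01g38230, at -1.88 (SE 0.20). At SR-12 h FDX2 differed by -3.18 (SE 0.29, adjusted p = 2.9e-07), the unnamed Cz03g22090 by -2.96 (SE 0.23), and Cz17g17050 was the 1 member called higher, by 1.23 (SE 0.32, adjusted p = 0.0052), with the split of its reads uncertain as above.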

How the data were processed

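The deposited values are FPKM per gene, to 0.01, which the authors made from filtered single-end reads of poly-A libraries. Per the labels and the methods, HISAT and Bowtie2 did the mapping and RSEM the quantification (versions not given in the sources used here). FPKM are not counts, so limma 3.58.1 (lmFit, contrasts.fit, eBayes with trend; R 4.3.3) was run on log2(FPKM + 1) with 6 group means over 18 samples and 15220 genes. Depth was estimated only as a ratio between samples. Other steps used Python 3.11.15, numpy 2.4.6 and pandas 2.3.3. The fit was tested on simulated data. The members and the lists were chosen with earlier results of these data known. Named genes are the members with a symbol, description, pathway or coding sequence in the study's tables, the 2 with the lowest SS-12 h minus SS-6 h, those at the limit of 150, the 2 highest and the 2 lowest at SS-6 h, and the 5 largest called differences each way without overlap in each comparison, by ID for at most 2 without a name. Cz17g17040, Cz07g27140, Cz07g27210 and the run members not so chosen were named after their values were seen. Replicate numbers were not treated as pairs: 0 of 9 same-numbered correlations of the 3 comparisons were over 0.1. Over all pairs of conditions 12 of 45 were over 0.1, with a range from -0.57 to 0.35. Whether the numbers follow the same cultures over time cannot be told from these values. No genome was used, so no coordinates or sequences are given. The authors' fold changes and p-values were not used.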

Additional observations from a re-analysis of the deposited data

How the results depend on the processing

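Alternatives were pseudocounts of 0.1 and 0.5, minimum mean FPKM of 1 and 5, scaling by median ratio, to TPM and by quantiles, fits of just the 2 conditions, a replicate block, no trend, and leaving out each sample. Members lower at SR-12 h than at SS-24 h numbered 62 to 81 in all of them, 67 with the replicate block and 67 to 69 without single replicates. Those higher numbered 0, but 3 and 2 with pseudocounts of 0.1 and 0.5, 1 with median-ratio scaling, 0 to 1 without single replicates, and 1 with members chosen without SS-6 h replicate 1, an alternative added after seeing the data. At SS-24 h against 0 h, members higher numbered 37 to 54, and those lower 5 to 9 against 8 as reported, with 5 for a mean FPKM of at least 5 and 5 for quantile normalization. At SR-12 h against 0 h members higher numbered 1, but 5 and 2 with pseudocounts of 0.1 and 0.5, 2 with median-ratio scaling, 3 with quantile normalization, 2 with only the 2 conditions compared, 1 to 2 without single replicates, and 2 with the members chosen without SS-6 h replicate 1. Those lower numbered 24 to 36. The cause of these moves was not tested. The rule again chose 120 to 142 of the 150 under the other scalings and a pseudocount of 0.5, the only other one tried for the rule, and 124 to 148 without single replicates. Among named genes at SR-12 h against SS-24 h 1 call was lost in 1 alternative, an uncalled gene was called in 23 cases, and the block changed none of their calls.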
